A study of Mus musculus with 18 samples.

Results

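The comparison described here sets the metM-Wnt line against the M-Wnt line in control medium. Its members were the 3 metM-Wnt and 3 M-Wnt arrays whose titles name the control medium, 6 of the 18 arrays in the series. Both are mouse mammary tumour cell lines, and the labels give a mammary tumour as the tissue of M-Wnt and a liver metastasis as that of metM-Wnt. Cells of either group were kept for 72 h in RPMI medium with 2.2 µM folic acid and fetal bovine serum, and neither group carried a further treatment. The same lines in medium without folic acid (0 µM, with dialyzed serum, 72 h) and the E-Wnt line in control medium, also labelled mammary tumour, are given below only where they place a difference between the lines. Arrays of one group are termed biological replicates in the design text, with no word on whether they came from separate thaws or cultures of the line, so that p-values measure the spread between these arrays.

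M-Wnt and E-Wnt come from mammary tumours of mice that express Wnt-1 from the mouse mammary tumour virus promoter, and M-Wnt is known as the mesenchymal, claudin-low line of the pair. Claudin-low tumours have few tight junction proteins and resemble cells after an epithelial to mesenchymal transition. A line grown from a metastasis carries what the founding cells had in the parent line together with what changed on the way to the second organ and in culture, so it is used to ask how cells that colonised an organ differ from the tumour line. One line stands for each state here, so the comparison is between these cell lines.

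RNA of the cells was labelled red (Cy5) and hybridised with green-labelled (Cy3) RNA of NIH3T3 mouse fibroblasts, the common reference on every array, with no dye swap. Every level below is therefore a log2 ratio of cells to NIH3T3, and every difference is metM-Wnt minus M-Wnt on the log2 scale. Of 80520 probes, 37676 were well above background in red on all 3 arrays of either group, and they gave 37648 features after 19 probes without a usable value on some array were left out and probes of the same gene were averaged. Of these probes 34603 were bright in both lines, 2464 only in M-Wnt and 609 only in metM-Wnt. The files pair probes with no gene names: 66 features are genes named through an accession in the probe ID, and the others are single probes known by ID.

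The mean red signal was lower on the metM-Wnt arrays (3268 to 3502) than on the M-Wnt arrays (4213 to 5170), while the mean green signal overlapped (3516 to 4273 against 3493 to 4223), and no spot was saturated. Its part in the differences was not tested. Within a line, arrays correlated across features at 0.9854 to 0.9937 in M-Wnt and 0.9627 to 0.98 in metM-Wnt, and between the lines at 0.9471 to 0.9666. The median SD of a feature was 0.111 log2 units in M-Wnt and 0.169 in metM-Wnt. All metM-Wnt arrays lay on a slide with no M-Wnt array, and the headers show a grid file for their slide and the design file for the M-Wnt slides, so line, slide and scanner gridding cannot be told apart. The label of each line could not be checked against cell type markers: of 9 luminal or epithelial, 3 basal, 10 mesenchymal, 6 hepatocyte, 3 endothelial, 4 immune and 4 fibroblast marker genes listed, 0 were read by a tested probe with a gene name.

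The oligonucleotides that carry the results are shown first, 5′ to 3′ as deposited. Those of the 4 named genes called in the comparison come first, with the probe A_52_P404533, which has no gene name and overlaps the Hspb1 probe. Capitals mark the run of 40 bases that both hold.
Hspb1: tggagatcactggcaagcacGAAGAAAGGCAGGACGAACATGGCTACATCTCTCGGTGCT
A_52_P404533: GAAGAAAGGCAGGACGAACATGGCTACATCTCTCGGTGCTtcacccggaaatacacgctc
Ppid: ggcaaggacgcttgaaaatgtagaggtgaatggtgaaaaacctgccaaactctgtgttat
Ssbp2: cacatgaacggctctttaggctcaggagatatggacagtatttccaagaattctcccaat
Supt4a: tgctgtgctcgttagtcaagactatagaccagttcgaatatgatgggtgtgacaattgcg

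Next are probes with some of the widest line differences in both media. A_51_P260740 and A_51_P328631 read more RNA in metM-Wnt, the others less. The last pair belongs to a single transcript of the probe class Mm_ncRNA (the mouse non-coding RNA set by its ID), and capitals mark the 42 bases its probes share.
A_51_P260740: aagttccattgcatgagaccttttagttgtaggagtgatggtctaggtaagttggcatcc
A_51_P328631: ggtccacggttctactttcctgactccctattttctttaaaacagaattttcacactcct
A_51_P461868: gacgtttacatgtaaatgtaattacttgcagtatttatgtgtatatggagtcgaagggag
A_51_P145453: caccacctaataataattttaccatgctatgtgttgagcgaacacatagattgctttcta
A_52_P362360: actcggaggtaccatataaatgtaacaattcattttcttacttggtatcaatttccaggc
Mm_ncRNA pair, shorter probe: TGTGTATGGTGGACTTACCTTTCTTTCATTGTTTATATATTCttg
Mm_ncRNA pair, longer probe: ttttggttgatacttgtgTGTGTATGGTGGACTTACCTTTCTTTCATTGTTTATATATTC

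The next group holds probes whose line difference changed sign between the media. The last 3 are A_52_P599964 and a second Mm_ncRNA pair, and capitals mark the 37 bases that A_52_P599964 shares with the shorter probe of that pair.
A_51_P164219: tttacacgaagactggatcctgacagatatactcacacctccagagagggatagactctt
A_51_P387123: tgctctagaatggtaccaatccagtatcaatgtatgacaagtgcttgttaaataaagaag
A_52_P663686: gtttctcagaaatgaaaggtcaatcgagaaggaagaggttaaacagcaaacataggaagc
A_52_P599964: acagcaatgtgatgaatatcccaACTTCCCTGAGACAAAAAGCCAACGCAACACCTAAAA
Second Mm_ncRNA pair, shorter probe: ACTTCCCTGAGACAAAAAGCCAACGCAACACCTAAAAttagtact
Second Mm_ncRNA pair, longer probe: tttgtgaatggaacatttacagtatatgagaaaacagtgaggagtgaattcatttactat

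In control medium metM-Wnt and M-Wnt differed at 3950 features, 10.5% of those tested, at a Benjamini-Hochberg adjusted p under 0.05 (limma). Of these, 2091 were higher in metM-Wnt (5.55%) and 1859 were lower (4.94%). Changes were mostly small: the median called change was 1.6-fold for the higher features and 1.49-fold for the lower ones. At least 2-fold changes numbered 651 (1.73%), of which 485 were higher and 166 lower; 27 features were at least 8-fold higher and 14 at least 8-fold lower. The 3 arrays of one line lay wholly beyond the 3 of the other for 34.4% of all features.

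The balance of directions depended on the scaling. Median centring of each array in place of loess moved the median difference of all features from 0.0349 to -0.16 log2 units and left 858 called, of which 37.1% were higher in metM-Wnt, against 52.9% with loess. With it 233 features were at least 2-fold higher and 352 at least 2-fold lower, so the excess of large increases turned into an excess of large decreases. Feature Extraction's own processed signals gave 616 and 359, and the red channel alone gave 642 and 457. The total fell to 2106 without the second M-Wnt array, 2158 without the third and 2614 without the third metM-Wnt array.

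**Figure D1:**
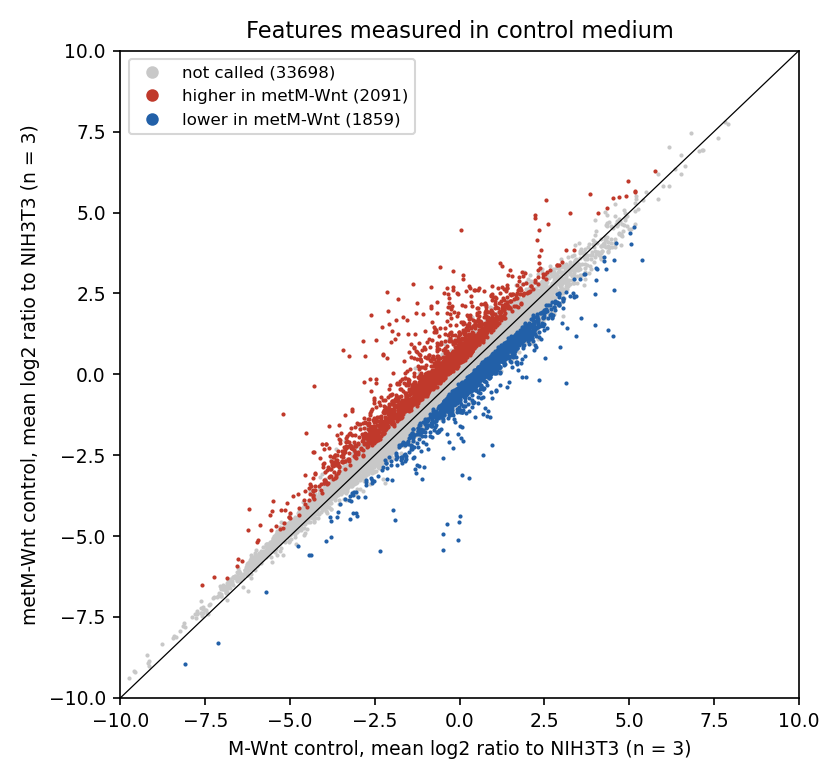
Mean log2 ratio to NIH3T3 of each of the 37648 features in M-Wnt (x axis) and metM-Wnt (y axis) in control medium, 3 arrays each; red points are the 2091 features called higher in metM-Wnt, blue points the 1859 called lower, grey points are not called, and the line marks equal levels. Most features lie along the line, and the called ones spread away from it on both sides.

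Heat shock proteins and their partners keep other proteins folded, and this list had 5 measured members of 26 listed, of which 1 rose and 1 fell in metM-Wnt. Of all features 10.5% were called. The list was chosen with earlier results of these data known, so its count is no result about chaperones. Hspb1, a small heat shock protein that holds unfolding proteins and acts on the actin cytoskeleton, stood at -2.81, -3.06 and -3.13 in M-Wnt and at -2.51, -2.17 and -1.76 in metM-Wnt. All metM-Wnt arrays were above all M-Wnt arrays. The difference was 0.85 ± 0.18 (SE, n = 3 arrays per line), a 1.81-fold rise (adjusted p = 0.0054). The overlapping probe A_52_P404533 read 0.80 ± 0.20 (adjusted p = 0.018), with M-Wnt arrays at -2.55, -2.82 and -2.94. With median centring Hspb1 kept its direction and was not called (0.42, adjusted p = 0.6).

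Ppid, the cyclophilin that binds Hsp90 and turns prolyl bonds, fell in metM-Wnt. Its arrays read 0.56, 0.79 and 0.98 in M-Wnt and 0.00, 0.34 and 0.34 in metM-Wnt, with no overlap. It fell by 0.56 ± 0.15 on the log2 scale, 1.47-fold (adjusted p = 0.03). This call was lost without the second M-Wnt array (adjusted p = 0.096), without the third (0.15) or without the first metM-Wnt array (0.12), and with median centring (-0.95, adjusted p = 0.21).

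The other chaperone genes did not pass. Dnajb9, a J-domain partner of the endoplasmic reticulum chaperone BiP, read 0.05, 0.24 and 0.24 in M-Wnt and 0.48, 0.48 and 0.70 in metM-Wnt, arrays that did not overlap (0.38 ± 0.14, adjusted p = 0.093). Without the third E-Wnt withdrawal array, which correlated least with its group (0.9214 the lowest pair) and enters the shared estimate of the spread, its adjusted p was 0.048. That setting was chosen after the data were seen, and it called 5590 features against 3950. Hspd1, the mitochondrial chaperonin, gave -0.25 (adjusted p = 0.37) and Txndc9, a thioredoxin-like partner of the cytosolic chaperonin, gave -0.14 (adjusted p = 0.44).

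Of 19 listed genes of transcription elongation, splicing and DNA binding, 4 were measured, of which 1 rose and 1 fell, against 10.5% called of all features. This list too was chosen with earlier results known, so its count is no result about such genes. Supt4a encodes Spt4, which pairs with Spt5 on elongating RNA polymerase II. Its level was -0.16, -0.09 and -0.14 in M-Wnt and 0.49, 0.31 and 0.25 in metM-Wnt. It was higher on every metM-Wnt array, by 0.48 ± 0.14 or 1.4-fold (adjusted p = 0.036). The call was the least stable of the 4 genes: it was lost without any 1 of the 6 arrays (adjusted p from 0.058 to 0.12), with processed signals (0.39, adjusted p = 0.097), the red channel alone (0.43, adjusted p = 0.12) and median centring (0.15, adjusted p = 0.89).

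Ssbp2, a protein that binds single-stranded DNA and stabilises LIM-domain transcription complexes, read -0.60, -0.44 and -0.47 in M-Wnt and -1.05, -0.73 and -0.91 in metM-Wnt. It was lower on every metM-Wnt array and fell by 0.40 ± 0.11 (adjusted p = 0.036). The call was lost without replicate 2 or 3 of M-Wnt (adjusted p = 0.14 and 0.12), without replicate 1 or 3 of metM-Wnt (adjusted p = 0.13 and 0.095), with median centring (-0.77, adjusted p = 0.2) and in a fit of the 6 compared arrays alone (-0.40, adjusted p = 0.065). Srsf10, a splicing factor, lay at -0.30 (adjusted p = 0.14) and Twistnb, an RNA polymerase I subunit, at -0.24 (adjusted p = 0.3). With array weights, which called 11984 of the 37648 features, both were called (-0.38, adjusted p = 0.0064, and -0.27, adjusted p = 0.041).

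Folate and one-carbon genes were read by 1 probe-named member of 18. Gcsh, a carrier protein by which glycine breakdown in mitochondria feeds one-carbon units into tetrahydrofolate, stood at 0.09, 0.51 and 0.74 in M-Wnt and 0.36, -0.12 and -0.24 in metM-Wnt. The lines overlapped, and the difference of -0.45 (95% interval -0.945 to 0.045) did not pass (adjusted p = 0.27). With array weights, which called 11984 of the 37648 features, it was called (-0.62, adjusted p = 0.009). The probes A_51_P297517 and A_52_P390625, which overlap the Gcsh probe, gave -0.48 and -0.22.

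In the lists of metastasis and matrix (1 of 14 measured), cell cortex and trafficking (4 of 8), cell cycle (1 of 8) and metabolism (5 of 9), 0 members passed in limma, nor did any at an unadjusted p under 0.05, and of 12 Wnt pathway genes 0 were read by a tested probe with a name. Ezr, which ties the actin cortex to the membrane and stands on both of the first lists, read -0.48, -0.34 and -0.04 in M-Wnt and 0.36, -0.78 and -0.06 in metM-Wnt. These ranges overlapped (0.13, 95% interval -0.461 to 0.720). E-Wnt carried more Ezr signal, at 1.60, 1.05 and 1.08. Prc1, which bundles microtubules between dividing chromosomes, gave -0.27 with a wide interval (-1.480 to 0.936). Selenoh, a nuclear selenoprotein, gave -0.54 (adjusted p = 0.32), though all its metM-Wnt arrays (0.44, 0.27 and 0.26) lay below the M-Wnt arrays (0.79, 0.91 and 0.90). Its adjusted p was 0.0041 without the third E-Wnt withdrawal array, the setting chosen after the data were seen that called 5590 features. The lipid synthesis enzyme Acaca (-0.10), the reductase Akr1b10 (0.30), the ATP synthase subunit Atp5md (-0.07) and the Rab GTPase-activating protein Tbc1d16 (0.18) did not pass either.

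Across the 66 named genes, 33 differences were positive and 33 negative, from -0.56 (Ppid) to 0.85 (Hspb1) with a median of 0.00. The 4 called make 6.06% of them, against 10.5% of all features. All named genes are read by Mm_ncRNA probes, and of the other probes of that class 6.8% were called. The named genes thus hold no larger share of calls than either. For 22 genes the 95% interval lay within 0.5 log2 units of no change. The closest to 0 were Vmn1r74, a vomeronasal receptor (-0.01), the RNA-binding protein Pcbp2 (0.01), the prefoldin subunit Pfdn1 (0.01) and the vesicle SNARE Sec22b (0.01).

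**Figure D2:**
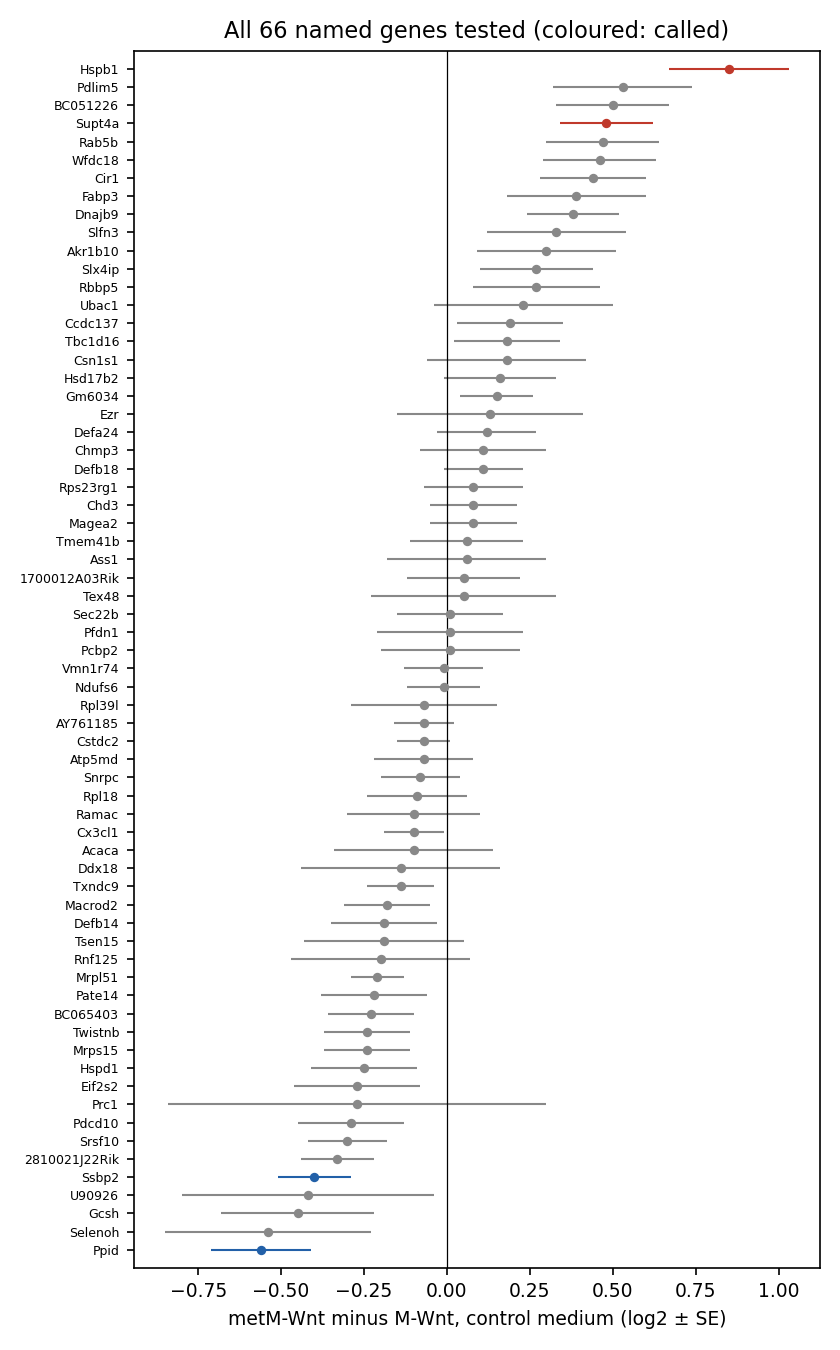
Difference between metM-Wnt and M-Wnt in control medium (x axis, log2 ± SE of the limma model, 3 arrays per line) for all 66 named genes tested, ordered by size; Hspb1 and Supt4a are red (called higher), Ppid and Ssbp2 blue (called lower) and the 62 others grey. The values run from -0.56 to 0.85.

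**Figure D3:**
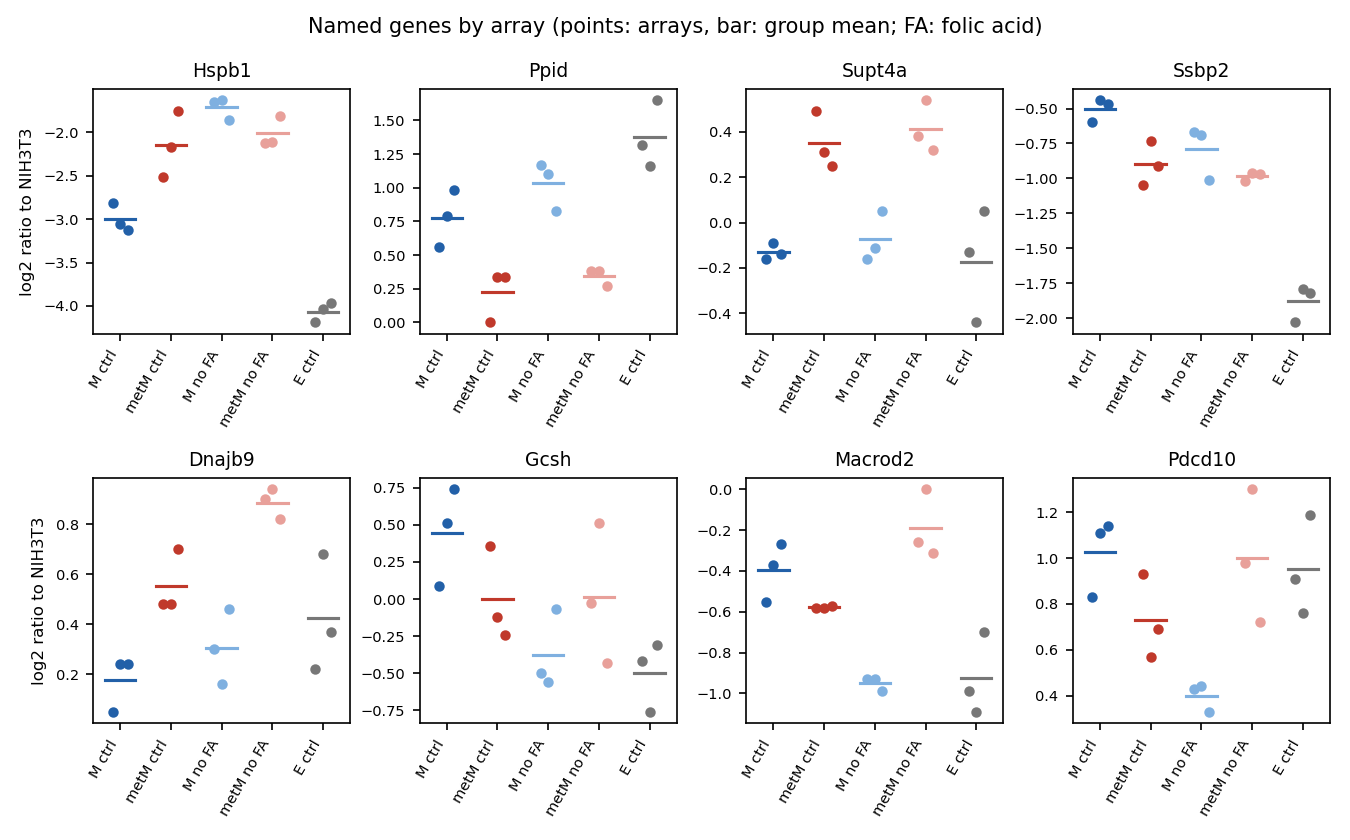
Log2 ratio to NIH3T3 (y axis, scaled per gene) on each array for 8 named genes in M-Wnt and metM-Wnt with folic acid (ctrl), in both lines without it (no FA) and in E-Wnt control; points are arrays and bars the mean of 3. In control medium the lines do not overlap for Hspb1, Ppid, Supt4a, Ssbp2, Dnajb9 and Macrod2.

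The line difference of Hspb1 differed between the media. Without folic acid M-Wnt read -1.65, -1.63 and -1.86 and metM-Wnt -2.12, -2.11 and -1.81, so the lines overlapped and the difference was -0.30 (adjusted p = 0.33). The line difference with folic acid exceeded that without it by 1.15 ± 0.25 (adjusted p = 0.012), though this was not called with the red channel alone (0.43, adjusted p = 0.27) or median centring (0.69, adjusted p = 0.7). Ppid and Supt4a kept theirs, at -0.69 (adjusted p = 0.011) and 0.48 (adjusted p = 0.04). Ssbp2 lay at -0.19 (adjusted p = 0.34), and its change between media was not called (-0.20, adjusted p = 0.5).

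The line difference depended on the medium for 4 of the 66 named genes: Hspb1, Macrod2, Pdcd10 and 2810021J22Rik, the last chosen after its values were seen. That share is near the 5.79% of all features, so the count is no result about the named genes. Macrod2, which removes ADP-ribose from proteins, was -0.55, -0.37 and -0.27 in M-Wnt and -0.58, -0.58 and -0.57 in metM-Wnt with folic acid, not called (-0.18, adjusted p = 0.46). Without folic acid it was 0.76 higher in metM-Wnt (adjusted p = 0.0018), a shift of -0.95 (adjusted p = 0.0073) that was not called with median centring (-1.21, adjusted p = 0.34). Pdcd10, part of a kinase complex at cell junctions, gave -0.29 with and 0.60 without folic acid (adjusted p of the shift = 0.025, lost when any 1 of 8 of its 12 arrays was left out and with median centring, where the shift was -1.27 and the adjusted p = 0.38). For 2810021J22Rik the values were -0.33 and 0.72 (adjusted p of the shift = 0.00075).

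The widest differences belonged to probes without gene names, and those that were lower in metM-Wnt were lower in both media. A_51_P461868 lay at -0.10, -0.13 and 0.10 in M-Wnt and at -5.02, -5.15 and -5.15 in metM-Wnt, and so fell by 5.06 ± 0.14 (33.4-fold, adjusted p = 5.8e-12). Without folic acid M-Wnt stayed between -0.33 and -0.23 and metM-Wnt between -4.95 and -4.76. E-Wnt lay with metM-Wnt, at -5.87, -5.32 and -5.95.

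A_51_P145453 showed the other placing of E-Wnt. It read -0.75, -0.43 and -0.26 in M-Wnt and -5.36, -5.17 and -5.72 in metM-Wnt (-4.94 ± 0.25, 30.6-fold lower, adjusted p = 3.3e-09), with E-Wnt near M-Wnt at 0.64, -0.19 and -0.07. A_52_P362360 shared that order: -0.27, 0.00 and 0.18 in M-Wnt, -4.51, -4.36 and -4.87 in metM-Wnt, and 0.94, 0.03 and 0.42 in E-Wnt. It fell by 4.55 ± 0.21 (adjusted p = 1.7e-09).

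The same order held for the strongest Mm_ncRNA pair, whose probes fell by 4.27 ± 0.29 and 4.44 ± 0.28. The longer probe read -0.35, -0.60 and -0.55 in M-Wnt and -5.02, -4.98 and -4.82 in metM-Wnt, and the E-Wnt mean was 0.06. Beyond the pair's own overlap, the longest run that any of these probes share with another, on either strand, is 9 bases. Whether some of them read different parts of a single RNA was not tested.

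With Mm_ncRNA probes left out of the ranking, the other 5 of the 8 lowest probes fell by 3.17 to 3.48 on the log2 scale. They were A_52_P670263, A_51_P242967, A_51_P450248, A_52_P592007 and A_51_P461877. In A_51_P242967 1 metM-Wnt array was well above background on both spots, so its low level is near the floor. That probe passed the filter through M-Wnt, so its call follows in part from that choice. In all 8 the arrays of the lines did not overlap, which fixed their choice, and each was called lower without folic acid under loess and under the 4 other scalings run. For A_52_P592007 and A_51_P242967 no metM-Wnt array without folic acid was above background on both spots.

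Probes higher in metM-Wnt fell into those that held without folic acid and those that turned. A_51_P328631 held: M-Wnt read -0.06, 0.06 and 0.15, metM-Wnt 4.42, 4.35 and 4.60, and E-Wnt 0.33, 0.34 and 0.61. The rise was 4.40 ± 0.15 (21.1-fold, adjusted p = 3.9e-11) with folic acid and 4.41 without it. Signal at this probe was high in metM-Wnt alone among these lines.

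A_51_P260740 also held, at -2.41, -2.64 and -2.78 in M-Wnt and 1.14, 2.06 and 2.33 in metM-Wnt (4.45 ± 0.31, adjusted p = 1.5e-07), and 4.04 higher without folic acid. Here E-Wnt lay within the metM-Wnt range, at 1.53, 1.70 and 1.63. A_51_P208083 was 4.21 higher with and 3.42 higher without folic acid. A_52_P599317 was 3.98 higher in control medium, where just 1 M-Wnt array was well above background on both spots. It was called higher without folic acid too, with no M-Wnt array above background on both spots there and so no size given. The probe passed the filter through metM-Wnt, so its call with folic acid follows in part from that choice.

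The 4 others of the 8 highest probes turned, and they led a larger group. A_51_P164219 had the largest increase in control medium: -1.97, -2.17 and -2.31 in M-Wnt against 2.81, 1.73 and 3.05 in metM-Wnt (4.68 ± 0.33, 25.6-fold, adjusted p = 2.2e-07). Without folic acid M-Wnt stood at 2.45, 2.55 and 2.44 and metM-Wnt at 0.46, 0.33 and 0.24, so that M-Wnt was the higher line. The line difference shifted by 6.81 ± 0.47 between the media (adjusted p = 2e-06).

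A_51_P387123 (4.14 with and -2.53 without folic acid), A_52_P653054 (4.08 and -2.70) and A_51_P165244 (4.17 and -2.05) did the same. The last was not called without folic acid with processed signals, the red channel alone or median centring (adjusted p = 0.11, 0.081 and 0.19). A_52_P663686 was not well above background on both spots of any M-Wnt control array, and its ratios there (-0.74, -0.93 and -0.87) are those of a dim spot. On red signal alone its rise in metM-Wnt was at least 13.6-fold, which sets the mean metM-Wnt signal against the higher of the dimmest bright signal of an array and the probe's own signal there. That is another scale than the ratio to NIH3T3, on which the measured difference was 3.54 (adjusted p = 0.00013), so it is no bound on the ratio. The probe passed the filter through metM-Wnt, so its call with folic acid follows in part from that choice.

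**Figure D4:**
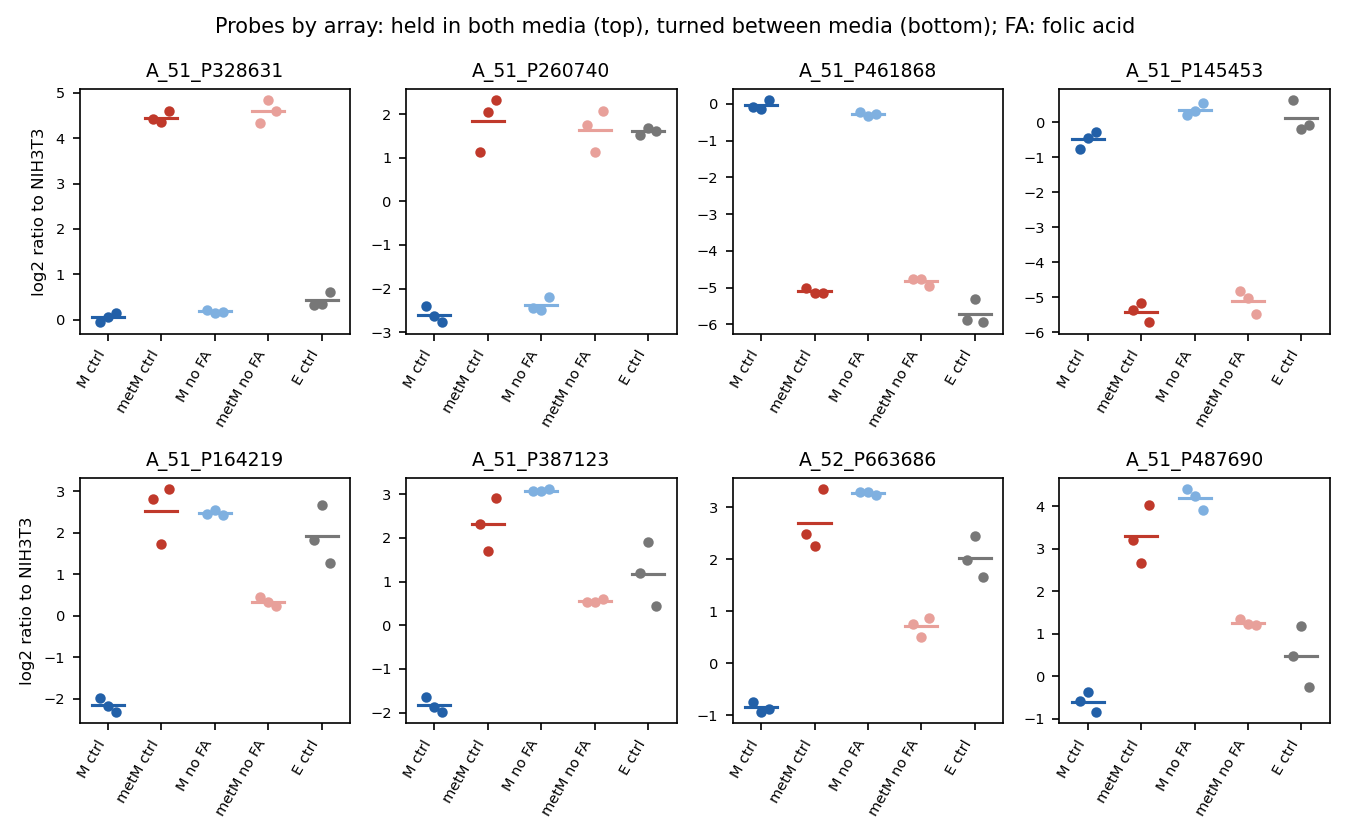
Log2 ratio to NIH3T3 (y axis, scaled per probe) on each array for 8 probes, in M-Wnt and metM-Wnt with folic acid (ctrl), in both lines without it (no FA) and in E-Wnt control; points are arrays and bars the mean of 3. The top row keeps the same order of the lines in both media, and in the bottom row M-Wnt lies below metM-Wnt with folic acid and above it without.

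The comparison in the other medium used different arrays of the same lines. It called 3220 features (8.55%). Of the 3950 control-medium calls, 62.9% had the same sign there, against 52.1% of all features, and 762 were called with the same sign, 19.3% of the control-medium calls and 23.7% of the calls without folic acid. In 283 both were called with opposite signs. No named gene checks the line or the medium that an array's label gives, so what these arrays show between media rests on the labels. Those include the probes above that turned, a group chosen after the values were seen: 181 went from higher to lower in metM-Wnt and 102 from lower to higher.

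Large increases and large decreases differed in how they carried over. Of the 166 features at least 2-fold lower, 120 (72.3%) were called lower without folic acid and 3 were called higher. Of the 485 at least 2-fold higher, 134 (27.6%) were called higher and 103 were called lower. The difference between the media itself was called for 43 of the former and 294 of the latter, against 2178 of all features (5.79%). The same contrast was 105 of 352 lower and 55 of 233 higher with median centring, 183 of 359 and 195 of 616 with processed signals, and 228 of 457 and 255 of 642 with the red channel alone. The gap between the directions was therefore much narrower under those scalings.

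**Figure D5:**
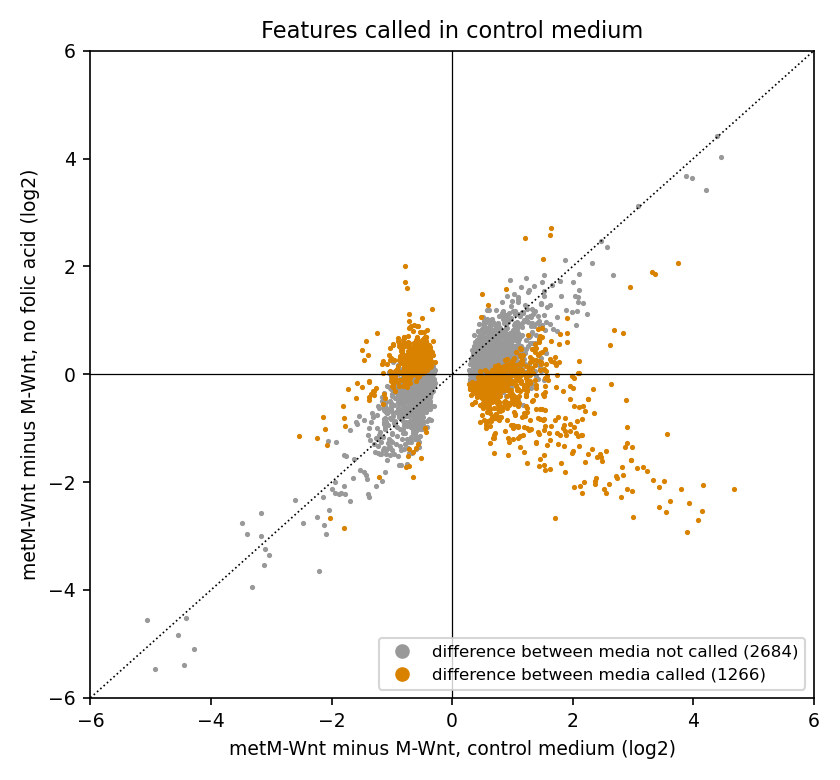
Line difference (metM-Wnt minus M-Wnt, log2) in control medium (x axis) against that without folic acid (y axis) for the 3950 features called in control medium; orange points are the 1266 whose difference between the media was called, grey points the others, and the dotted line marks equal differences. Features far left lie along the dotted line, while an orange arm of features higher in control medium runs below the horizontal axis.

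The features that turned from higher to lower had a median level of -0.65 in M-Wnt and 0.83 in metM-Wnt with folic acid, and of 1.22 and 0.08 without it; E-Wnt control stood at 0.31. Without folic acid their median was thus higher in M-Wnt, lower in metM-Wnt, and the distance was wider for M-Wnt. In 80 of them both differences were at least 2-fold. Their medians were -0.54 over the first 2 M-Wnt control arrays and -0.59 on the third, which shared a slide with the M-Wnt arrays without folic acid (median 2.07) and lay below all of those in 80 of 80. The first metM-Wnt array without folic acid, on the slide of the metM-Wnt controls, had a median of 0.46 against 0.49 on the other 2 and lay below all 3 controls (median 1.73) in 75 of 80. The 80 were chosen on these same arrays, so both of these orders follow in part from that choice. Any part of the slide in them was not tested. The second metM-Wnt control array was the lowest of its group in 71 of 80.

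The features higher in metM-Wnt in both media had medians of -0.99 in M-Wnt and -0.11 in metM-Wnt with folic acid, and -0.83 and -0.05 without it. Those lower in both had 0.33 and -0.50, then 0.42 and -0.50. These median levels in each line moved little between media compared with the line difference. Both sets were chosen as called with the same sign in both media on these same arrays. A steady line difference thus follows in part from that choice, and single features can move more than the medians. The 102 that turned from lower to higher had smaller differences, with medians of -0.50 and 0.57, and 0 of them were at least 2-fold both ways.

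E-Wnt placed the called differences between the tumour lines. Its control mean lay between the 2 others at 1083 of the 3950 called features, beyond metM-Wnt at 1788 and beyond M-Wnt at 1079. It was nearer to metM-Wnt at 59.4% of them, at 69% of the lower features and 50.9% of the higher ones. These are group means compared as a description, with no test, and the share over all features was not computed. The headers of the E-Wnt control arrays show a grid file, as those of metM-Wnt do. Nearness to metM-Wnt and scanner gridding therefore cannot be told apart.

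Probes of the same RNA gave the same direction wherever both were called. Such probes can share bases, as the first Mm_ncRNA pair does over 42. The common direction thus follows in part from the probe design and is no independent check. Of all features 10.5% were called. Of 1468 transcripts read by at least 2 tested probes, 154 had a called probe: in 26 all probes were called higher, in 42 all lower, and in 0 were probes called both ways by limma, also 0 at an unadjusted p under 0.05. Of 2206 sets of probes that share at least 25 bases, 242 had a call, 61 were called higher throughout, 68 lower throughout and 0 both ways, also 0 at an unadjusted p under 0.05. Without the second M-Wnt control array, the transcripts with all probes called in a single direction fell from 68 to 31, without the third to 34, and without the third metM-Wnt control array to 39.

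The second Mm_ncRNA pair shown above turned with the probes described. Its longer probe read -0.19, -0.42 and -0.29 in M-Wnt and 2.27, 1.30 and 3.0 in metM-Wnt (2.49 ± 0.32, adjusted p = 1e-04), and -1.60 without folic acid. A_52_P599964, which shares 37 bases with the shorter probe, was not above background on both spots of any M-Wnt control array. On red signal its rise was at least 4.89-fold (adjusted p = 2.7e-05 for the ratio), and its ratio difference was -1.72 without folic acid. It passed the filter through metM-Wnt, so its call with folic acid follows in part from that choice.

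A pair of overlapping probes shows a rise that was not called without folic acid. Capitals mark the 29 bases they share.
A_51_P358233: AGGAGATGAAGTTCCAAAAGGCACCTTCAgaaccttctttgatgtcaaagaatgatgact
A_51_P358237: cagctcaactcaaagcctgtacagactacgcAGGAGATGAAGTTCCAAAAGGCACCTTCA
They were 2.34 ± 0.38 and 2.26 ± 0.38 higher in metM-Wnt (adjusted p = 0.00077 and 0.0011). Without folic acid they gave -0.28 and -0.47, neither called, and the shift between the media was called for both (adjusted p = 0.0079 and 0.0066).

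The overlapping pair that was lowest in metM-Wnt held in both media. Capitals mark its 32 shared bases.
A_51_P265312: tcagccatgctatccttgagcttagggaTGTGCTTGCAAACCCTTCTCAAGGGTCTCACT
A_52_P628580: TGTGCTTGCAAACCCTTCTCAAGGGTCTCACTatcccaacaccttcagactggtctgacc
These fell by 1.94 ± 0.20 and 1.99 ± 0.15 in control medium (adjusted p = 1.4e-05 and 4e-07), and lay at -2.19 and -2.13 without folic acid. E-Wnt was lower still, from -2.72 to -2.22 on the first probe against 0.64 to 0.78 in M-Wnt.

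Where no array of a line had both spots well above background, the fold is a bound on red signal alone. Such probes passed the filter through the bright line, so their calls follow in part from that choice and are given with no count. On red signal A_52_P764477 was at least 13.6-fold higher in metM-Wnt (adjusted p = 5.9e-08 for its ratio to NIH3T3), and A_52_P113537 was at least 10.6-fold lower (adjusted p = 2.2e-06).

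By probe class, the A_51 and A_52 probes gave 3540 calls of 30255 (11.7%), the Mm_ncRNA probes 360 of 5296 (6.8%) and the probes whose IDs start with VIRS 40 of 1940 (2.06%). Called Mm_ncRNA probes were 149 higher and 211 lower, while the median difference of all of them was 0.00, and called A_51 and A_52 probes were 1927 higher and 1613 lower. These splits were not tested, and the balance of directions moved with the scaling. Brightness moved with the share of calls: with the probes ordered by red signal and cut into 5 equal groups, it was 4.57% in the dimmest, 6.77% in the next, then 12.5%, 14.8% and 13.9% in the brightest. The base composition of the probes moved with the direction. Among A_51 and A_52 probes the median GC content was 45% for those higher in metM-Wnt, 40% for those lower and 43.3% for those not called, and the higher share of calls rose from 41.2% in probes of up to 35% GC to 76% in those over 50%. Its part in the direction was not tested.

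A few probes could be placed on the genome, because their whole sequence lies in the 300 bases around a gene start given by RefSeq (GRCm38.p6). Of 112 such tested probes, 5 were called (4.46%), below the share of all features. Both probes on the strand opposite to Fancl, upstream of its start, were lower in metM-Wnt. Fancl is the ubiquitin ligase of the Fanconi anaemia DNA repair pathway. Capitals mark the bases where the probes meet.
A_51_P268514, chr11:26386882-26386941, minus strand: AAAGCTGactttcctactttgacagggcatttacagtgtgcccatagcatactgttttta
A_51_P268519, chr11:26386935-26386994, minus strand: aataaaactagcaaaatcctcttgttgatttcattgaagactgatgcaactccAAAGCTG
The first read 1.41, 1.23 and 0.98 in M-Wnt and fell by 0.73 ± 0.15 in metM-Wnt (adjusted p = 0.0051), and the second fell by 0.78 ± 0.15 (adjusted p = 0.0037). Without folic acid they gave -0.06 and -0.12, not called, and the shift between the media was not called (adjusted p = 0.081 and 0.085). These probes read the strand opposite to the gene and give no level for Fancl itself.

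One Mm_ncRNA probe crosses the start of Fgf11, an intracellular member of the fibroblast growth factor family, on the gene's strand.
Fgf11 start probe, chr11:69802248-69802292, minus strand: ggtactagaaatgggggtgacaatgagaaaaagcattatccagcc
It read -1.16, -1.13 and -1.35 in M-Wnt and was 0.58 ± 0.15 higher in metM-Wnt (adjusted p = 0.023). Without folic acid it gave 0.35 (adjusted p = 0.18), and its shift was not called (adjusted p = 0.59). The probe passed the filter through metM-Wnt, with 2 M-Wnt arrays above background on both spots. Whether it reads the messenger RNA of Fgf11 was not tested.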

How the data were processed

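The authors scanned each array into spot and background intensity for red and green with Agilent Feature Extraction 10.7.3.1, a version that the submitters' processing notes name too. That program also wrote, per the file headers, a processed intensity (background removed, dyes balanced) and its log10 ratio of red to green. The same log10 ratios make up the deposited table of the series, within 0.005 of the scanner values and centred on a median of 0. The array design is mm9 in the headers, and gene names come from RefSeq (GRCm38.p6).

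From the intensities, normexp correction (offset 50) and loess within arrays, with weight 0 for control and flagged spots, gave log2 ratios in limma 3.58.1 (R 4.3.3; files read by the data.table package, version 1.17.8; figures from matplotlib 3.10.9). The 2 spots of a probe were averaged, then the probes of a gene. A probe was kept when both spots were well above background in red on all 3 arrays of either group. A single model of 6 group means over 18 arrays (12 residual and 3.93 prior degrees of freedom) gave each log2 difference with its SE, 2-sided tests and Benjamini-Hochberg adjusted p over 37648 features, with a feature called under 0.05. The number of arrays limits precision, and the median 95% interval was ± 0.33 log2 units. The model was tested on simulated data.

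Of 80520 probes, 220 carry an accession of 157 genes. The transcript and strand that each reads were not examined, and the roles given are those of the gene. Sequences are in the files of 2 slides. Named features were all called genes with names and the measured members of fixed lists. Also named were the 8 highest and 8 lowest called probes without overlap between the lines, with Mm_ncRNA probes left out of this ranking. Up to 6 transcripts each way with all probes called were named, and so were the 4 genes closest to 0 with an interval within 0.5. Probe IDs that hold an accession are not printed. Probes that turned between media, overlapping pairs and start-window probes were added after their values were seen. The 2 other start-window probes that were called are not reported here. The members and lists were chosen with earlier results of these data known.

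Replicate numbers did not pair the arrays: same-numbered deviations from the group means correlated at -0.526, -0.0989 and -0.494. Alternatives covered the scaling, the filter, the arrays in the fit, blocks, weights and each array left out.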

Additional observations from a re-analysis of the deposited data

Results flagged for a closer look

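The difference between metM-Wnt and M-Wnt itself differed between the media, by the interaction term of the limma model, at 2178 features. Among the named genes it did so for Hspb1 (1.15), Macrod2 (-0.95), Pdcd10 (-0.90) and 2810021J22Rik (-1.05). Each value is the line difference with folic acid minus that without it, in log2 units. Among the probes shown it did so for A_51_P164219 (6.81), A_51_P165244 (6.22), A_51_P387123 (6.67), A_52_P653054 (6.78), A_51_P487690 (6.83), A_51_P514085 (5.64), A_52_P663686 (6.10), A_51_P327751 (5.91), A_51_P387239 (6.31) and A_51_P277994 (5.96). For these 10 probes each shift was called in every setting that gave a value. The medium without folic acid also held dialyzed serum, so folic acid and serum cannot be told apart in any of them. No M-Wnt control array had both spots well above background for A_52_P663686, so its 6.10 rests in part on dim spots and is no measured size. Single values were not searched for outliers within groups of 3 arrays.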

How the results depend on the processing

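The 8 highest and 8 lowest probes, ranked with Mm_ncRNA probes left out, kept their direction and call in each of the settings that gave a value. Their differences ran from 3.75 to 5.91 for the 8 higher and from -5.76 to -2.97 for the 8 lower. The counts moved far more. Against 3950 called (2091 higher, 1859 lower), median centring gave 858 (318 and 540), the slide as a random block 6851 (3621 and 3230, estimated correlation -0.144) and array weights 11984 (6530 and 5454). The line differences called without folic acid (3220) became 540, 5801 and 11757 in these settings and 6541 with the red channel alone, and the shifts between media (2178) became 250, 3766 and 11353. Transcripts with all probes called in a single direction (68) became 15 with median centring and 242 with array weights, and features of at least 2-fold (651) became 1099 with the red channel alone. No slide held arrays of both M-Wnt and metM-Wnt, so the slide block cannot take the slide out of the line difference.

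Leaving out 1 array gave 2106 to 5590 called features, 1171 to 2901 higher, 935 to 2689 lower, 595 to 686 of at least 2-fold, 1517 to 4837 without folic acid, 1160 to 3541 shifts and 31 to 54 such transcripts. The counts of 5590, 2901, 2689, 4837 and 3541 came without the third E-Wnt withdrawal array, a setting chosen after seeing the data that was not run for the transcripts; the lowest came without an array of M-Wnt in each case. The replicate block gave 3168 called features, although the numbers did not pair the arrays; Ppid (-0.56, adjusted p = 0.053) and Supt4a (0.48, adjusted p = 0.063) lost their call with it. Genes not called gained a call with array weights: Dnajb9 (0.38, adjusted p = 0.0061), Gcsh (-0.62, 0.009), Pdcd10 (-0.40, 0.011), Selenoh (-0.61, 0.0017), Srsf10 (-0.38, 0.0064), Tbc1d16 (0.31, 0.043) and Twistnb (-0.27, 0.041). Array weights called 11984 of the 37648 features in all. Dnajb9 also gained a call with the slide block (adjusted p = 0.029), which called 6851 features. Selenoh gained it in the fit of the 6 compared arrays (adjusted p = 0.014), which called 4534.

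Genes near 0 changed sign, none of them called: with processed signals Tbc1d16 (-0.01), Tmem41b (-0.01) and Pcbp2 (-0.06), and the same with the deposited series table (-0.01, -0.01 and -0.06); with median centring Tbc1d16 (-0.03), Tmem41b (-0.15), Pcbp2 (-0.39), Pfdn1 (-0.39) and Sec22b (-0.33); with the red channel alone Tmem41b (-0.07), Pcbp2 (-0.26) and Pfdn1 (-0.04); with the slide block Vmn1r74 (0.02); with array weights Tmem41b (-0.01) and Sec22b (-0.06). Leaving out 1 array turned 7 of them, whose values then ran from -0.03 to 0.16 (Tmem41b), -0.08 to 0.08 (Sec22b), -0.06 to 0.06 (Vmn1r74), -0.15 to 0.11 (Pcbp2), -0.17 to 0.33 (Pfdn1), -0.13 to 0.44 (Ezr) and -0.32 to 0.08 (Acaca). The causes of these shifts were not tested. The fit of the 6 compared arrays gives no value for the other medium, and the brightest probe of a gene applies to genes alone.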
